A study of Mus musculus with 2 samples.

Results

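The 7 gene rows described here are microRNA genes used as markers of white blood cells: Mir142b, Mir223, Mir342, Mir155, Mir150, Mir146 and Mir146b. They were taken by name from the 1973 microRNA genes of the deposited tables, and all 7 were found. Small RNA below 30 bases from whole mouse liver at embryonic day 13.5 was sequenced as 2 libraries, from 2 biosamples that the labels number as biological replicates 1 and 2. The embryos were of the strain B6NCrl and of both sexes, pooled within a biosample, with no treatment and no genetic change named, and both carry the same donor label. With 1 group, the labels imply no comparison of conditions, and the values below are levels, their order and the difference between the libraries.

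MicroRNAs are cut from hairpin precursors into short mature strands, and each pairs with target transcripts mainly through its seed, bases 2 to 8 from the 5′ end. The fetal liver is the chief blood-forming organ of the embryo in this period, so blood progenitors, red cell precursors and myeloid cells lie among immature hepatocytes. miR-142 is made in nearly all blood lineages and in few other cells. miR-223 marks granulocytes and monocytes, miR-150 and miR-342 are known from lymphocytes, miR-155 rises when lymphocytes and macrophages are activated, and miR-146a and miR-146b are induced by NF-κB and dampen Toll-like receptor signalling.

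The levels turn on which strand is read at the row Mir142b, so its sequences are shown before the values. All sequences and their positions are from RefSeq on GRCm38.p6, the build that mm10 names, and run 5′ to 3′. All 7 genes had a mature entry there and 6 had a hairpin entry. The hairpins of Mir142 (plus strand, chr11:87756864-87756927) and Mir142b (minus strand, chr11:87756841-87756955) come from opposite strands of the same stretch, with the mature strands in capitals:
Mir142 hairpin: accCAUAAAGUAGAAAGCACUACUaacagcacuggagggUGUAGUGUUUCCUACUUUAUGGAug
Mir142b hairpin: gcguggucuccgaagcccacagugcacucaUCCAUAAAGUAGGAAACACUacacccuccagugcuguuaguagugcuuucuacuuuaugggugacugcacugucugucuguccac
The 64 bases of the Mir142 hairpin are contained whole in the reverse complement of the 115 bases of the Mir142b hairpin. The 20 bases of mature miR-142b are the reverse complement of bases 4 to 23 of miR-142a-3p, so only the strand tells a read of one from a read of the other.

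**Figure D1:**
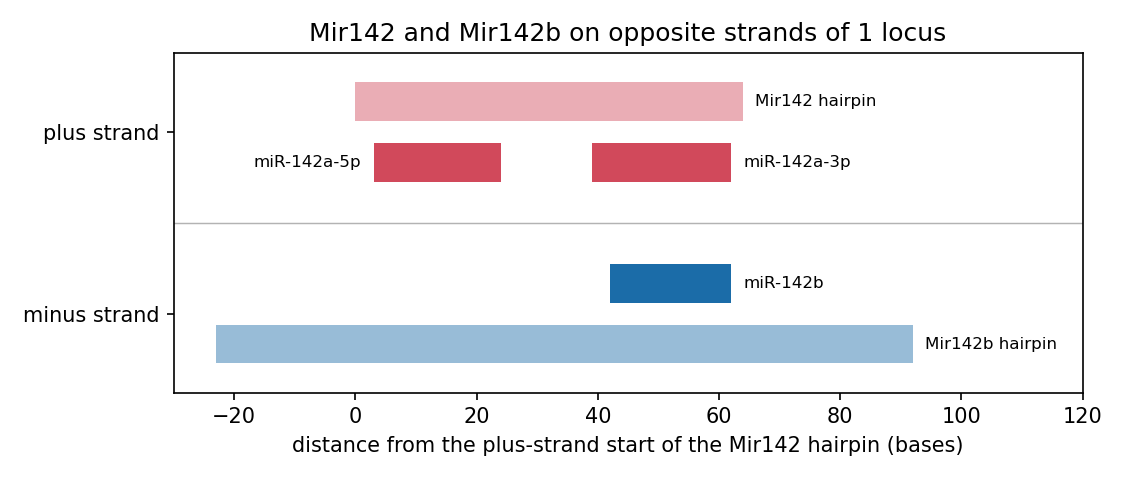
Map of the Mir142 locus, with the distance in bases from the plus-strand start of the Mir142 hairpin on the x axis and the strand on the y axis. Pale bars are hairpins and dark bars are mature strands. miR-142b lies opposite miR-142a-3p within the same stretch.

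The mature strands that the other results turn on follow, with the seed in capitals. They are the strands of miR-142, the arms usually named for miR-223, miR-342 and miR-155, and both 5p forms of miR-146, which share a seed:
miR-142a-5p: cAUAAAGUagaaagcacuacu
miR-142a-3p: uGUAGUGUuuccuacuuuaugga
miR-142b: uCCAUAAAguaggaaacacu
miR-223-3p: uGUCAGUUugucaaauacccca
miR-342-3p: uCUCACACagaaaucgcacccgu
miR-155-5p: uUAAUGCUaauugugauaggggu
miR-146a-5p: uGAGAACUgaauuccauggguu
miR-146b-5p: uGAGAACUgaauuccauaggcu
Counted over the 14 mature entries used for these genes and Mir142, with Mir150 entered by miR-150-3p alone, 12 have a seed that no other mouse entry carries, and the remaining pair is miR-146a-5p and miR-146b-5p. In the whole set of 1738 mature entries, 28.4% share their seed with another name. The miR-146 5p forms are identical over their first 17 of 22 bases and differ by G18A and U21C, counted from the 5′ end of miR-146a-5p with its base given before the position. A count belongs to a whole hairpin here, so the arms cannot be told apart.

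The genes lie scattered over the genome. Mir142 sits in an intron of the non-coding host gene Mir142hg, Mir342 (chr12:108658620-108658718, plus strand) in an intron of Evl, and Mir146b (chr19:46342762-46342870, plus strand) in an intron of Mfsd13a. Mir155 (chr16:84714140-84714204, plus strand) lies in an exon of its host transcript Mir155hg, and Mir223 (chrX:96242817-96242926, plus strand) in an exon of the non-coding gene F630028O10Rik. Mir150 (chr7:45121757-45121821, plus strand) and Mir146 (chr11:43374397-43374461, minus strand) overlap no other annotated gene in GENCODE M21, apart from genes of the type TEC, which were not searched. With Mir142 in place of Mir142b, all 7 lack another annotated microRNA gene within 10 kb on their strand, as do 78.2% of the 2202 annotated microRNA genes. The nearest such neighbour, Mir7055, lies 51.5 kb from Mir150.

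Replicate 1 gave 2729929 counts over all genes and replicate 2 gave 4481337, read on the strand of each gene except at Mir142b, where the opposite strand was read. Levels are counts per 1000000 of these totals (CPM). A gene with no read could still have had up to 3 counts, which stand for 1.10 and 0.669 CPM. At least 10 counts in each library, taken as detected, were reached by 368 genes, or 18.7%. Markers of the tissue were present: all 5 hepatocyte genes counted were detected, summing to 81229 ± 636 CPM (SD, n = 2), led by Mir122 at 76463 ± 286 CPM. Of 2 genes listed as endothelial 1 was counted, Mir126a, at 53549 ± 1941 CPM. Which cells the reads of Mir126a came from was not tested. The 3 erythroid genes counted were detected. Of other tissues, 4 of 7 muscle genes were detected, with a sum of 987 ± 244 CPM, and none of 5 neural genes, where Mir9-3 alone had counts. The neural genes, Mir1a-1, Mir133a-1 and Mir133a-2 of the muscle list and Mir194-1 and Mir194-2 of the hepatocyte list have near-identical copies, so their counts are uncertain. Intervals below are exact 95% intervals for counting error only.

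At the row Mir142b, almost all reads were those of Mir142. Replicate 1 had 122527 counts on the opposite strand and 1 on the strand of the row, and replicate 2 had 194599 and 4. The strand of Mir142 thus held 99.999% of the reads of this row in replicate 1 (Clopper-Pearson interval 99.995% to 99.99998%) and 99.998% in replicate 2 (99.995% to 99.9994%). The counts on the minus strand, where Mir142b is annotated, averaged 0.658 CPM with every gene read on its own strand. The 4 counts of replicate 2 lay above the 3 that a gene with no read could have had. That limit does not allow for stray reads from the other strand. The minus-strand counts were a smaller share of their row than the 0.0229% and 0.0250% of opposite-strand counts in the remaining rows given below. Whether they were reads of miR-142b was not tested. Mir223, Mir342, Mir146, Mir155 and Mir146b had 0 opposite-strand counts in both libraries, and Mir150 had 4 in replicate 1 and 0 in replicate 2. The row Mir142b was not alone in this: 9 other rows, led by Gm24321 with 0 counts on its strand and 72806 and 144711 opposite it, had more opposite-strand than gene-strand counts and at least 100 of the former in each library. In these 9 rows 99.99% of counts in each library were on the opposite strand, against 0.0229% and 0.0250% in all remaining rows outside the group. They were read on their own strand, where they held few or no counts, in every level and place below unless stated.

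**Figure D2:**
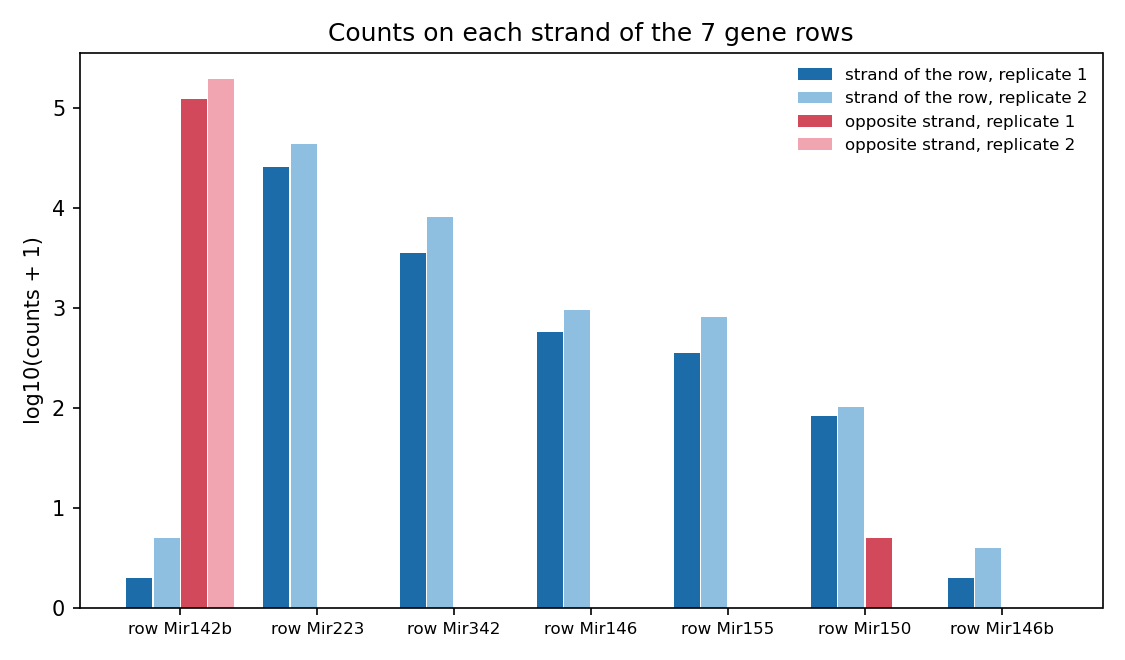
Counts on the strand of each of the 7 gene rows (blue) and on the opposite strand (red) in replicates 1 and 2, as log10(counts + 1). The row Mir142b has nearly all its counts on the opposite strand, 122527 and 194599. Of the other rows, Mir150 has 4 there in replicate 1.

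Mir142, the pan-leukocyte microRNA, was the most abundant of the group. It stood at 44883 CPM in replicate 1 and 43424 CPM in replicate 2, a mean of 44154 ± 1031 CPM (SD, n = 2). Among all 1973 genes, with reads that mapped to several sites in the genome left out, it took place 4 in each library. By the mean it took place 5, behind both Mirlet7g and Mir17. The genes above it were Mir122, Mir126a and Mirlet7g in replicate 1, and Mir122, Mir126a and Mir17 in replicate 2. Genes with near-identical copies, such as Mirlet7a-1, can lose the reads left out, so they could stand higher than their counts show. Each place here and below is therefore a place by the reads counted, and not among all microRNAs of the liver. Mir142 also exceeded the red cell genes: it was 7.34 and 7.73 times Mir144, and 4.37 and 1.72 times Mir451a. In bulk tissue, fewer cells of a type and less RNA per cell cannot be told apart, and how evenly different microRNAs entered the libraries was not tested.

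Mir223, the myeloid microRNA, was second. Its level was 9571 CPM in replicate 1 and 9722 CPM in replicate 2, on 26129 and 43566 counts, a mean of 9646 ± 106 CPM. Both libraries gave it place 28, or place 31 with the opposite strand read at all 10 rows that have most counts there, a choice made after seeing the data. Mir142 kept place 4 in each library on that reading. Mir142 was higher than Mir223 by 4.69 times (interval 4.63 to 4.75) in replicate 1 and by 4.47 times (4.42 to 4.51) in replicate 2, so the order was the same in both.

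The microRNAs known from lymphocytes were lower and differed widely among themselves. Mir342 had 1317 and 1820 CPM in replicates 1 and 2, on 3595 and 8155 counts, a mean of 1568 ± 356 CPM, and places 86 and 79 (93 and 86 on the reading of all 10 rows). Mir155, a microRNA of activated lymphocytes and macrophages, had 130 and 181 CPM on 354 and 810 counts, a mean of 155 ± 36.1 CPM. Mir150, which is high in mature B and T cells and restrains the progenitor factor Myb, had 30.0 CPM (23.9 to 37.3) and 22.8 CPM (18.6 to 27.6), on 82 and 102 counts. The libraries of these 3 genes did not overlap: the lower value of Mir342 was above the higher value of Mir155, and the lower value of Mir155 above the higher value of Mir150. Mir223 exceeded Mir150 by 319 times in replicate 1 and 427 times in replicate 2.

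The NF-κB-induced pair was split. Mir146, the gene of miR-146a, had 212 CPM in replicate 1 and 211 CPM in replicate 2 on 580 and 947 counts, a mean of 212 ± 0.805 CPM. Mir146b had 1 count in replicate 1 and 3 in replicate 2, 0.366 CPM (0.00927 to 2.04) and 0.669 CPM (0.138 to 1.96), and was the only one of the 7 that was not detected. Counts of Mir146 were 580 times those of Mir146b in replicate 1 (interval 104 to 22948) and 316 times in replicate 2 (108 to 1533). Their hairpins share a word of 20 bases, so reads that end before G18A could have gone to several places and are in neither count. Neither Mir142, Mir223, Mir342, Mir155 nor Mir150 shares such a word with a microRNA gene elsewhere.

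**Figure D3:**
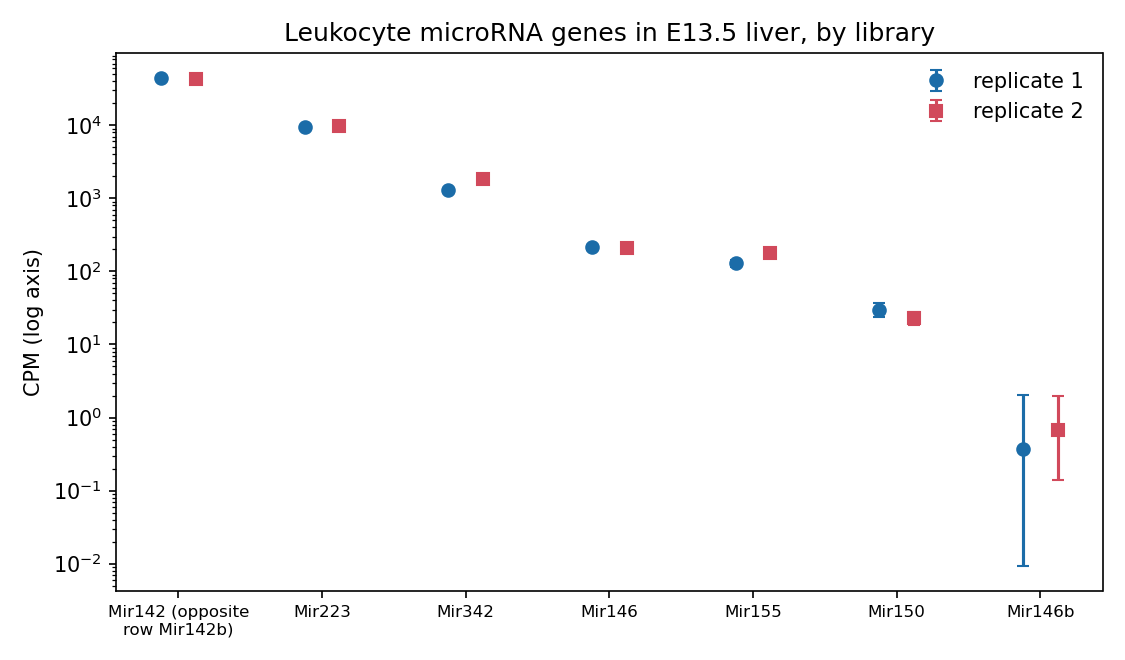
Level of each gene in replicate 1 (circles) and replicate 2 (squares) in CPM on a log axis, with exact 95% counting intervals, which are smaller than the symbols for the abundant genes. The levels run from 44883 and 43424 CPM for Mir142 down to 0.366 and 0.669 CPM for Mir146b.

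The order Mir142, Mir223, Mir342, Mir146, Mir155, Mir150, Mir146b was the same in both libraries for all 6 neighbouring pairs. The closest pair was Mir146 and Mir155, with a ratio of 1.64 (1.43 to 1.88) in replicate 1 and 1.17 (1.06 to 1.29) in replicate 2. Other neighbours were further apart: Mir223 over Mir342 by 7.27 and 5.34 times, Mir342 over Mir146 by 6.20 and 8.61 times, and Mir155 over Mir150 by 4.32 and 7.94 times. Mir150 over Mir146b was 82 (14.3 to 3278) and 34 (11.3 to 168), which rests on 1 and 3 counts of Mir146b. A permutation over 2 libraries cannot give a two-sided p below 0.5, so the order carries no test.

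Summed, the 7 genes held 5.61% and 5.54% of all counts used in replicates 1 and 2, a mean of 5.58% ± 0.0539 (SD, n = 2). Mir142 made up 79.2% ± 1.08 of this sum and Mir223 17.3% ± 0.358. Mir342 gave 2.82% ± 0.665, Mir146 0.380% ± 0.00223, Mir155 0.279% ± 0.0675 and Mir150 0.0473% ± 0.00877. Without the row Mir142b, Mir223 made up 85.0% and 81.3% of the remainder.

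**Figure D4:**
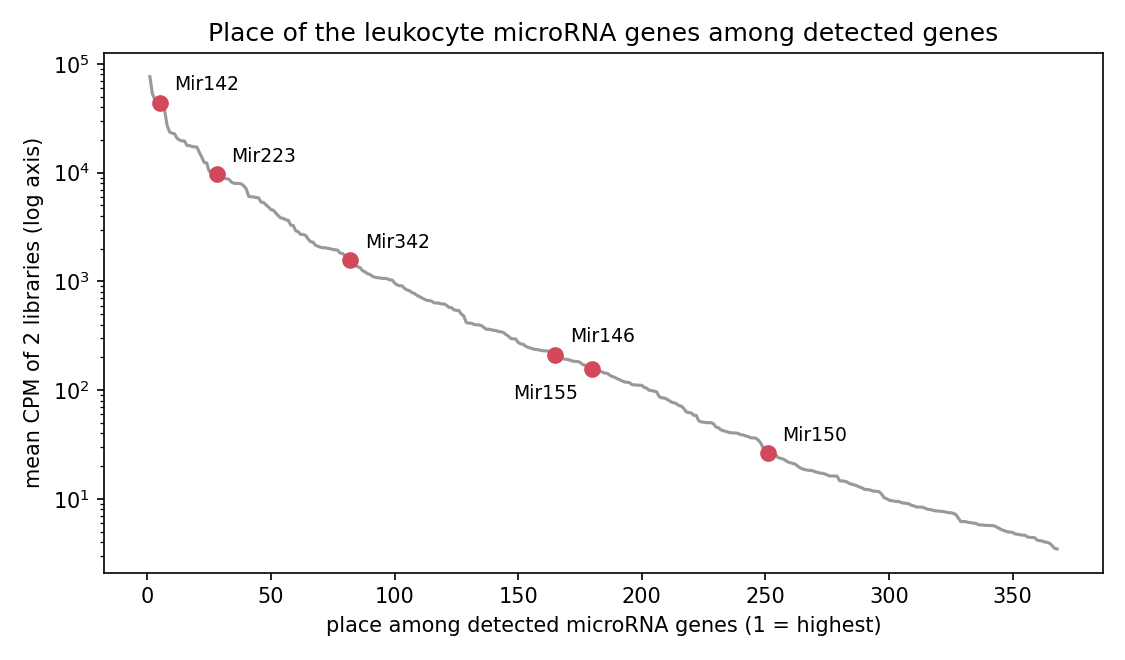
Mean CPM of the 368 detected genes on a log axis against their place, with the 6 detected genes of the group marked. They run from place 5 by mean (Mir142) through places 28, 82, 165 and 180 to place 251 (Mir150). Reads that mapped to several sites in the genome are left out, so genes with near-identical copies could stand higher.

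By the sum over both libraries of the difference in log2(CPM + 1), the genes with the level most like each member were as follows. For Mir142 they were Mirlet7g at 45034 ± 4435 CPM (0.15) and Mir17 at 46944 ± 5963 CPM (0.31). For Mir223 they were Mir154 at 9960 ± 33.1 CPM (0.09) and Mir22 at 10214 ± 260 CPM (0.16). Mir342 was nearest to Mir375 (0.36) and Mir429 (0.37), Mir146 to Mir24-2 (0.08) and Mir615 (0.09), Mir155 to Mirlet7a-1 (0.10) and Mir34c (0.21), and Mir150 to Mir1198 (0.22) and Mir3070a (0.33). Mir24-2, Mirlet7a-1 and Mir3070a have near-identical copies and uncertain counts. Mir146b tied at a difference of 0 with 7 other genes, 2 of them Mir1933 and Mir1951. These are likenesses of level over 2 libraries.

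Each gene's counts in the 2 libraries were set against the library totals by an exact binomial test, two-sided, and p-values were adjusted by Benjamini-Hochberg over every gene that had a count. The test compares these 2 libraries and no conditions, and it allows for counting error only. Of the 7 genes, 3 passed an adjusted p of 0.05, 2 higher and 1 lower in replicate 2. Of all 711 genes tested, 142 or 20.0% passed, 8.58% higher and 11.4% lower, and of the 368 detected genes 37.2% passed, beside 3 of 7 members (42.9%), or 3 of the 6 detected members (50%).

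Mir342 was 1.38 times higher in replicate 2, a log2 difference of 0.47 (0.41 to 0.52, adjusted p = 2.71e-59, exact test). Mir155 was 1.39 times higher, a log2 difference of 0.48 (0.30 to 0.66, adjusted p = 1.19e-06, exact test). Both exceeded counting error, but 19.6% of detected genes differed by more than Mir342 and 18.8% by more than Mir155. Mir142 was called lower at only 1.03 times (adjusted p = 3.08e-18, exact test), a difference that 84.5% of detected genes exceeded. The median detected gene differed by 1.13 times, and the spread between replicates beyond counting was 13.1% as a biological coefficient of variation.

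Mir223 differed by 0.02 in log2 (adjusted p = 0.168, exact test) and Mir146 by -0.01 (-0.16 to 0.14, adjusted p = 1, exact test). With TMM or DESeq2 scaling Mir223 passed, at 0.05 in log2 with adjusted p = 1.24e-04 and 9.88e-05 by the exact test, and the small difference of Mir146 turned to 0.02. Mir150 differed by -0.40 (-0.83 to 0.04, adjusted p = 0.213, exact test), which was not separable from counting error at this depth. The interval of Mir146b ran from -2.77 to 6.58. In the same libraries the red cell gene Mir451a went from 10267 to 25199 CPM and the sum of the 3 erythroid genes from 17181 to 31600 CPM. The rise of the sum came from Mir451a alone: Mir144 went from 6118 to 5618 CPM and Mir486 from 796 to 784 CPM. Mir342, Mir155 and Mir142 also passed the test with TMM and with DESeq2 scaling.

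**Figure D5:**
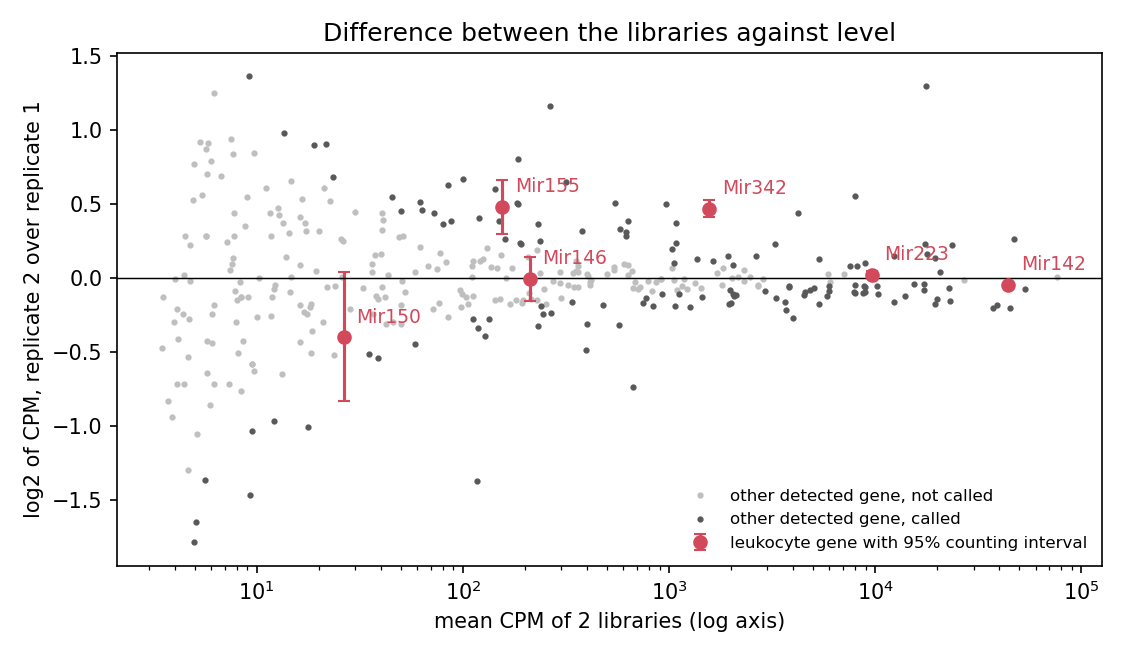
Difference between the libraries (log2 of CPM in replicate 2 over replicate 1) against mean CPM on a log axis for the 368 detected genes. Red points are the 6 detected genes of the group with exact 95% counting intervals, and dark grey points are other genes that passed the test. Mir342 and Mir155 lie at 0.47 and 0.48, and the other 4 lie at or below 0.02.

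Lists of microRNAs described in the same lineages were set beside these genes, and they hold some of them. Of 17 lymphoid genes counted, 3 of them members (Mir342, Mir155 and Mir150), 15 were detected, and 12 of the 14 others, with a median level of 122 CPM over the 17 and a sum of 7273 ± 625 CPM. Mir181c, a microRNA of the miR-181 family that tunes T cell receptor signalling in thymocytes, led by the mean at 1714 ± 27.9 CPM, level with Mir342 within the spread of the latter. The order turned between the libraries: Mir181c had 1694 and 1734 CPM in replicates 1 and 2, beside 1317 and 1820 CPM for Mir342. Mir29a followed at 1066 ± 101 CPM, Mir181d at 970 ± 235 CPM and Mir28a, which has a near-identical copy, at 603 ± 27.3 CPM. Mir181a-1, Mir181a-2, Mir181b-1, Mir181b-2, Mir29b-1, Mir29b-2 and Mir29c have near-identical copies too, so their counts are uncertain. The rank of Mir181c, the sum, the calls and the median, which is the level of Mir29c, carry this limit. Between the libraries 7 of the 17 (41.2%) were called, 5 higher and 2 lower in replicate 2, with Mir342 and Mir155 among the 5, beside 20.0% of all genes tested and 37.2% of detected genes. Mir181d was higher in replicate 2 by 0.50 in log2 and Mir29a lower by 0.19, and the median of the 15 detected genes was 0.09, against -0.03 over all detected genes. Of the hepatocyte markers 5 of 5 were higher in replicate 2, with a median of 0.15, beside 164 of the 368 detected genes. Of these 5 markers 2 were called, beside the same 20.0% of all genes tested and 37.2% of detected genes. Mir122, the highest of the 5, differed by 0.008 in log2. The hepatocyte sum went from 80779 to 81679 CPM. The part of these markers in the lymphoid values was not tested.

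Of 17 myeloid and inflammatory genes counted, 4 of them members (Mir223, Mir146, Mir155 and Mir146b), 16 were detected, with a median of 218 CPM over the 17, and Mir146b was the exception. Their sum of 82792 ± 2063 CPM came mainly from genes outside the group: Mir322 at 27082 ± 212 CPM, Mir21a at 22766 ± 736 CPM, Mir23a, which has the near-identical copy Mir23b, at 12388 ± 995 CPM and Mir652 at 8902 ± 256 CPM. Mir223 lay between Mir23a and Mir652. Which cells of the whole liver the reads of these genes came from was not tested. The median of 218 CPM is the level of Mir24-2, which has near-identical copies and an uncertain count. Mir27a also has a near-identical copy. Between the libraries 4 of the 17 (23.5%, against the same 20.0% and 37.2%) were called, 1 higher (Mir155) and 3 lower (Mir21a, Mir23a and Mir652), and the median of the 16 detected genes was -0.04. Another gene of this list and 3 of the erythroid list were not analysed here. Of the 3 erythroid genes counted, Mir451a stood at 17733 ± 10558 CPM, Mir144 at 5868 ± 354 CPM and Mir486 at 790 ± 8.80 CPM. Their sum of 24391 ± 10196 CPM lay below that of the 7 leukocyte genes, 55762 ± 539 CPM, in both libraries. That order rested on Mir142, which is made in nearly all blood lineages. Without the row Mir142b, a choice made after seeing the data, the leukocyte genes summed to 11261 and 11957 CPM in replicates 1 and 2. Those sums lay below the erythroid sums of 17181 and 31600 CPM. Of the 3 erythroid genes 66.7% were called, 1 higher in replicate 2 and 1 lower, beside the same 20.0% and 37.2%. The median difference of the erythroid genes was -0.02.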

How the data were processed

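Raw read counts per gene were deposited by the authors as 1 table per library, made on mm10 with GENCODE M4, per the file lists in the deposit. Which aligner and counter were used is not given in the sources used here, and each table counts both strands, the strand of the gene and the opposite strand, and the first equals the sum of the others for all 1973 genes. Reads in several places (36.7% of 7671547 reads in replicate 1 and 32.0% of 12554684 in replicate 2), unmapped (19.6% and 24.2%) or in no gene (5.72% and 5.64%) were kept out of totals and tests. GENCODE M21 gave symbols for 1894 of the genes.

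The gene-strand counts entered every value, with the opposite strand at Mir142b, and were scaled to CPM, counts per 1000000 of the counts used. The binomial test, intervals and figures used Python 3.11.15, scipy 1.17.1 and matplotlib 3.10.9. The coefficient of variation came from edgeR 4.0.16 with an intercept-only design on detected genes, and DESeq2 1.42.0 gave alternative size factors. Likeness used a pseudocount of 1 CPM. Named were all 7 members, the 2 genes with the nearest level to each, and up to 4 further genes with the highest level in each lineage list. The members and lists were chosen with earlier results of these data known. Alternatives covered scaling, strand, total, hairpin length, detection limit and single libraries.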

Additional observations from a re-analysis of the deposited data

Results flagged for a closer look

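Reads on the strand that was not used exceeded 3, the limit that a count of 0 allows, in 1 library each of 2 rows. Mir142b had 4 counts on its own strand in replicate 2 and 1 in replicate 1, beside 194599 and 122527 on the strand of Mir142. This is a smaller share than that of opposite-strand counts in the remaining rows outside the group, 0.0229% in replicate 1 and 0.0250% in replicate 2. Mir150 had 4 counts on its opposite strand in replicate 1 and 0 in replicate 2. These are 4.65% of the reads of that row in replicate 1 (Clopper-Pearson interval 1.28% to 11.5%), while 0 of 102 reads in replicate 2 allows up to 3.55%. Apart from genes of the type TEC, which were not searched, GENCODE M21 lists no gene on the other strand at Mir150.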

How the results depend on the processing

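The summed level of 55762 CPM became 52248 CPM with both strands counted for every gene, 12145 CPM with the gene strand for every gene, which leaves out the reads of Mir142, and 19873 CPM with all reads of the tables as the total. Without the row Mir142b, a choice made after seeing the data, it was 11609 CPM. Leaving out each library gave 55381 to 56144 CPM, and the opposite-strand share of Mir142b ran from 99.998% to 99.999%. All 6 neighbouring pairs kept their order under TMM, DESeq2, both strands, all reads and hairpin length, and 5 with the gene strand for every gene. The difference of Mir146 between the libraries turned from -0.01 to 0.0189 in log2 with TMM and 0.0194 with DESeq2 scaling, and Mir223 then passed the test, for 4 members called in place of 3. Genes called ran from 139 to 153. With TMM the split was 72 higher and 67 lower, against 61 and 81. Of 49 single levels under alternatives, 13 moved by at least 1 SD, none with TMM or DESeq2 scaling. The levels from 1 library alone could not move by this rule, because the SD came from the same 2 libraries. No paired analysis was possible because both libraries belong to the same group. Depth limits Mir146b, on 1 and 3 counts, and Mir150, on 82 and 102.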

Other observations

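Mir342 and Mir155, which lie on different chromosomes and in different host transcripts, kept nearly the same proportion in both libraries: Mir342 was 10.2 times Mir155 in replicate 1 and 10.1 times in replicate 2, while Mir342 was 1.38 times and Mir155 1.39 times higher in replicate 2. Mir342 over Mir150 went from 43.8 to 80.0 times and Mir223 over Mir342 from 7.27 to 5.34 times. These ratios were picked after the values were seen and rest on 2 libraries.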
